A study of Homo sapiens with 16 samples.

Results

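The 9 genes followed here were PLAU, PLAUR, PLAT, SERPINE2, SERPINB2, THBS1, THBD, TFPI and TFPI2. They serve plasminogen activation, its inhibition and coagulation control at the cell surface. The setting was 2 human mammary cell lines with and without 2-deoxy-glucose. A gene was taken when its symbol was the only one named for a probe set of the array, and of several probe sets the brightest one, by its mean on the 16 arrays, stood for the gene. This gave 8 of the 9 genes a value, through 25 probe sets, among 19775 genes in all. SERPINB2, which encodes plasminogen activator inhibitor 2, was not analysed here because no probe set was named for it in the annotation used.

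RNA was measured on 16 one-colour Affymetrix arrays, 1 per culture, in 4 groups of 4 biological replicates (letters A to D). MDA-MB-231 cells come from a breast cancer and MCF10A cells from breast epithelium, without forming tumours. For 24 h the cells were given either water as vehicle or 2-deoxy-glucose (2DG) at 50 mM, which is taken up like glucose but stalls glycolysis. All media held 17.5 mM glucose; MCF10A medium had 1 mM glutamine and 5% horse serum plus hydrocortisone, cholera toxin, insulin and hEGF, while MDA-MB-231 medium had 2 mM glutamine and 10% fetal bovine serum. Line and medium therefore cannot be told apart, and each line stands for itself alone.

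Plasminogen is a circulating zymogen that is cut to plasmin, a broad serine protease that dissolves fibrin and degrades matrix. Urokinase (PLAU), held at the cell surface by its receptor (PLAUR), and tissue plasminogen activator (PLAT) make this cut. Serpins such as SERPINE2, also called protease nexin 1, trap the activators and thrombin. THBS1 encodes thrombospondin 1, a matrix glycoprotein that binds cells, proteases and latent transforming growth factor beta. Thrombomodulin (THBD) turns thrombin from a clotting enzyme into an activator of protein C. TFPI and TFPI2 encode Kunitz-type inhibitors: TFPI blocks tissue factor with factor VIIa, and TFPI2 inhibits plasmin among other proteases in the matrix.

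Upstream sequences were taken from the RefSeq promoter table of build GRCh38.p14, which held windows for 6 of the 8 measured genes, with 2 starts each for PLAU and SERPINE2. The 4 genes with a single start are shown because they cover the fall of THBS1, the smaller response of PLAUR and the responses of TFPI and TFPI2 described below. Each line gives the 250 bases before the transcript start, 5′ to 3′ on the gene's strand, with capitals for matches, on either strand, to 4 motifs. These were the AP-1 motif in the form TGAGTCA, searched with its complementary form, and the TEAD motif GGAATG. The others were the TATA box, spelled TATAAA, and the cyclic AMP response element, spelled with the letters TGACGTCA.
THBS1 at chr15:39580829-39581078 (plus strand): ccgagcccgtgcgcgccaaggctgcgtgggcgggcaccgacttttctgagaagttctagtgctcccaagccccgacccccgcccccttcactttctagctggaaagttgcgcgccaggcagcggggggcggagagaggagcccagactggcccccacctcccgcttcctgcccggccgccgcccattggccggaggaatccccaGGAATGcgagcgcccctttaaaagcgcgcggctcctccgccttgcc
PLAUR at chr19:43670170-43670419 (minus strand): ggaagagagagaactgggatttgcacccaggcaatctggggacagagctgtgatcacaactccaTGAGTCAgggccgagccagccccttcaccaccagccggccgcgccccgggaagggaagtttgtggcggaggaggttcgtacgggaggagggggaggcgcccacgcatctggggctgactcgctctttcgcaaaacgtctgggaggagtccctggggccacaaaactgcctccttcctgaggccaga
TFPI at chr2:187554436-187554685 (minus strand): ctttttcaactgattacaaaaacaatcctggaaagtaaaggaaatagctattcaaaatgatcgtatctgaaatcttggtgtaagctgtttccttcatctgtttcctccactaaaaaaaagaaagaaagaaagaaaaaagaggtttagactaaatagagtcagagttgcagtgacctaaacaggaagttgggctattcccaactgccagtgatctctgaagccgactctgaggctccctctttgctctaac
TFPI2 at chr7:93890754-93891003 (minus strand): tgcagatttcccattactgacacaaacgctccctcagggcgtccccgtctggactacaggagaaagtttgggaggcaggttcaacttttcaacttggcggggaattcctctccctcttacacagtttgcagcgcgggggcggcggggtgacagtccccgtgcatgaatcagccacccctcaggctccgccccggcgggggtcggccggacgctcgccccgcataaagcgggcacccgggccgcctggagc
THBS1 held 1 TEAD match, which begins 46 bases before the start, and PLAUR 1 AP-1 match, 186 bases before it. No match to these 4 motifs was found in the windows of TFPI and TFPI2. Among 35116 windows of the same length, 4.2% held the AP-1 letters, 11.9% the TEAD letters, 10.7% the TATA letters and 1.65% the cyclic AMP response element. The Sp1 letters (GGGCGG), which are not marked, were in 42.6% of all windows, at 4 places in THBS1 and 2 in TFPI2 and not in those of PLAUR or TFPI. The E-box (CACGTG) was in 6.34% of all windows and in none of these 4. The GC content was 69.6% for THBS1, 63.2% for PLAUR, 64.4% for TFPI2 and 38.4% for TFPI. A match here is a description of letters and was not tested for binding.

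The first question was how these genes differed between 2DG and vehicle in each line. In MCF10A, 2DG lowered 6 of the 8 genes, led by THBS1, PLAU and TFPI2, and raised TFPI and THBD. The THBD rise was small (0.1625), its groups overlapped, and its direction depended on the probe set. In MDA-MB-231, PLAT, SERPINE2, TFPI2 and PLAUR rose, PLAU, TFPI and THBS1 fell, and THBD did not pass the test, all on the brightest probe sets. Values are log2, so a difference of 1 is a doubling, and a gene was called where limma's p, adjusted by Benjamini-Hochberg over the 19775 genes, was under 0.05. All 8 genes were called in MCF10A, where 54.2% of all genes were, and 7 in MDA-MB-231, where 50.9% were. The 2 members higher and 6 lower in MCF10A stand beside 29% and 25.2% of all genes, and the 4 higher and 3 lower in MDA-MB-231 beside 25.5% and 25.4%. The groups did not overlap for 7 members in each line, beside 51.6% and 46.9% of all genes. A log2 difference of at least 1 was reached by 4 called members in MCF10A (11.2% of all genes) and by 5 in MDA-MB-231 (7.77%). The arrays measured whole cultures, so lower levels in every cell and expression in fewer cells cannot be told apart.

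The median log2 difference of the 8 members was -0.64 in MCF10A and 0.105 in MDA-MB-231, beside 0.0225 and 0.0275 for all genes. Regardless of sign, the median size was 0.99 and 1.03, beside 0.2025 and 0.1725. The set of all genes includes dim ones, and the members were chosen with earlier results of these data known. Contrasts between members and all genes are therefore descriptions only. The 2 treatment comparisons take their means from different arrays but share a common estimate of the spread, and 7 members were called in both. Of these, 4 were lower with 2DG in MCF10A and higher in MDA-MB-231 (PLAUR, PLAT, SERPINE2 and TFPI2), 1 the reverse (TFPI), and 2 were lower in both (PLAU and THBS1). Opposite signs were thus seen for 5 of 7, beside 20.9% of the 7797 genes called in both lines. As given below, the sign in MDA-MB-231 depended on the probe set for TFPI, THBS1 and PLAUR, and the sign in MCF10A for THBD. These counts therefore hold for the brightest probe sets.

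**Figure D1:**
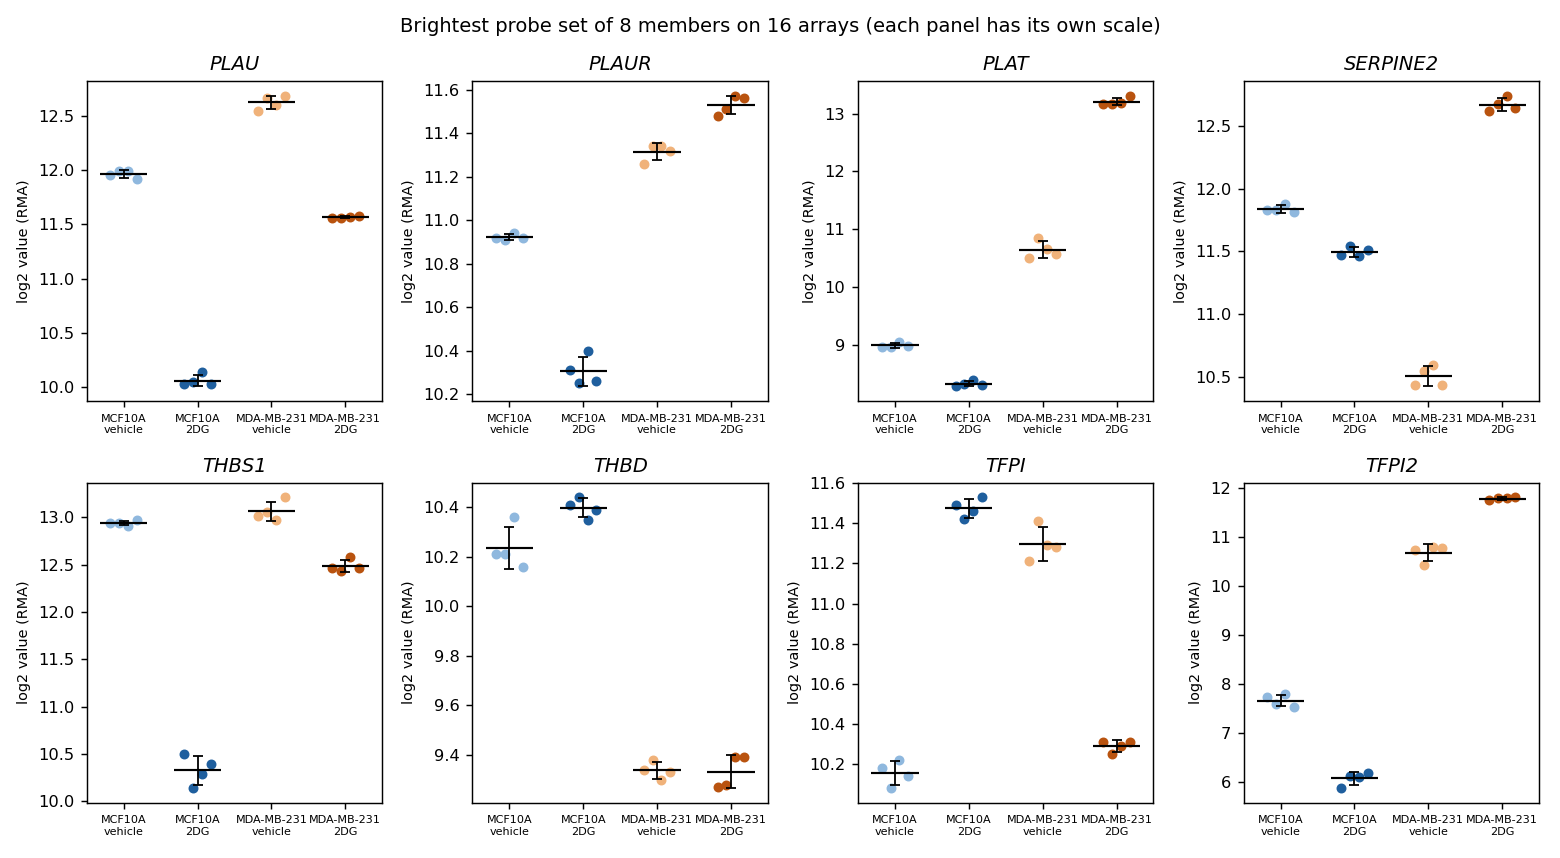
Log2 values (y axis, 1 scale per panel) of the brightest probe set of 8 genes on 16 arrays in 4 groups (x axis); points are arrays, the line is the group mean and the bar 1 SD (n = 4). PLAT and TFPI2 are highest in MDA-MB-231 with 2DG, at means of 13.21 and 11.79, while THBS1 is lowest in MCF10A with 2DG, at 10.33.

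Urokinase fell in both lines. PLAU stood at 11.95, 11.99, 11.99 and 11.92 in the MCF10A vehicle arrays A to D and at 10.03, 10.05, 10.14 and 10.03 with 2DG. The MDA-MB-231 readings were 12.54, 12.66, 12.60 and 12.68 on vehicle and 11.56, 11.56, 11.57 and 11.58 with 2DG. No 2 groups overlapped, and the order from high to low was MDA-MB-231 vehicle, MCF10A vehicle, MDA-MB-231 2DG and MCF10A 2DG. The fall was 3.73-fold in MCF10A (log2 difference -1.90 ± 0.0382, SE, n = 4 per group; limma adjusted p = 3.35e-16). In MDA-MB-231 it was 2.07-fold (-1.05 ± 0.0382; limma adjusted p = 7.93e-13), and the response differed between the lines by 0.85 ± 0.054 (limma adjusted p = 1.58e-09). The other probe set of PLAU gave -2.10 and -1.30.

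The urokinase receptor changed less than its ligand. PLAUR read 10.92, 10.91, 10.94 and 10.92 in MCF10A on vehicle and 10.31, 10.25, 10.40 and 10.26 with 2DG. The MDA-MB-231 arrays gave 11.26, 11.34, 11.34 and 11.32 on vehicle and 11.48, 11.51, 11.57 and 11.56 with 2DG. Groups did not overlap, and the receptor was lower with 2DG in MCF10A (-0.62 ± 0.0383; limma adjusted p = 4.07e-10) and slightly higher in MDA-MB-231 (0.215 ± 0.0383; limma adjusted p = 0.00014). The difference of response was 0.83 ± 0.0541 (limma adjusted p = 2.04e-09). Another of its 3 probe sets instead fell in MDA-MB-231 by 0.21 ± 0.0394 (limma adjusted p = 0.000214), and the mean over all 3 gave 0.085 (limma adjusted p = 0.0616). The rise of PLAUR in MDA-MB-231 therefore depended on the probe set, while its fall in MCF10A was called on all 3.

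Tissue plasminogen activator had the largest difference of 2DG response between the lines among the 8 genes. PLAT read 8.96, 8.97, 9.05 and 8.98 in MCF10A on vehicle and 8.29, 8.33, 8.39 and 8.30 with 2DG. In MDA-MB-231 the vehicle arrays stood at 10.51, 10.85, 10.66 and 10.57, and the 2DG arrays at 13.17, 13.17, 13.18 and 13.31. Every MDA-MB-231 2DG array was thus above every other array of the series for this gene. PLAT rose 5.9-fold in MDA-MB-231 (2.56 ± 0.0606; limma adjusted p = 8.23e-15), a size larger than that of 99.8% of all genes. It fell by 0.66 ± 0.0606 in MCF10A (limma adjusted p = 5.94e-08), and the responses differed by 3.22 ± 0.0856 (limma adjusted p = 7.96e-14). PLAT had 1 probe set, so no other could be compared.

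The serpin SERPINE2, which inhibits both activators and thrombin, followed PLAT in direction in both lines. It read 11.83, 11.83, 11.88 and 11.81 in MCF10A on vehicle and 11.47, 11.54, 11.46 and 11.51 with 2DG. MDA-MB-231 went from 10.44, 10.55, 10.60 and 10.44 on vehicle to 12.62, 12.67, 12.74 and 12.64 with 2DG. The line with the lowest vehicle values thus had the highest values with 2DG, with no overlap between any 2 groups. SERPINE2 rose 4.47-fold in MDA-MB-231 (2.16 ± 0.0424; limma adjusted p = 1.3e-15) and fell by 0.34 ± 0.0424 in MCF10A (limma adjusted p = 2.42e-06). The difference of response was 2.50 ± 0.06 (limma adjusted p = 3.37e-14). Its other, dim probe set had the same signs (-0.55 in MCF10A and 0.50 in MDA-MB-231).

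Thrombospondin 1 had the largest fall of the 8 genes in MCF10A. THBS1 read 12.94, 12.94, 12.91 and 12.97 there on vehicle and 10.50, 10.14, 10.29 and 10.39 with 2DG. The MDA-MB-231 readings were 13.01, 13.05, 12.97 and 13.21 on vehicle and 12.46, 12.43, 12.58 and 12.46 with 2DG. The vehicle groups of the lines overlapped, while every 2DG array lay below them. The fall was 6.11-fold in MCF10A (-2.61 ± 0.0676; limma adjusted p = 7.08e-15) and 1.49-fold in MDA-MB-231 (-0.58 ± 0.0676; limma adjusted p = 1.42e-06). The response differed by 2.03 ± 0.0956 (limma adjusted p = 4.37e-11). All 6 other probe sets also fell in MCF10A, by between 0.295 and 4.665. The dimmest of them had MCF10A vehicle means of 6.09, 5.39 and 5.61, below the array medians. Their falls in that line are therefore uncertain. In MDA-MB-231 the 3 with the higher means over 16 arrays fell (-0.97, -0.74 and -1.87), and of the other 3, 2 rose (0.255 and 0.39) and 1 did not pass (0.17, limma adjusted p = 0.429).

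Thrombomodulin had the smallest differences on its brightest probe set. THBD read 10.21, 10.21, 10.36 and 10.16 in MCF10A on vehicle and 10.41, 10.44, 10.35 and 10.39 with 2DG, which overlapped through vehicle array C. The MDA-MB-231 readings were 9.34, 9.38, 9.30 and 9.33 on vehicle and 9.27, 9.28, 9.39 and 9.39 with 2DG. These groups overlapped, and the difference was -0.005 with a 95% interval of -0.102 to 0.0924 (limma adjusted p = 0.944). The MCF10A difference of 0.1625 ± 0.0457 passed (limma adjusted p = 0.00616), but 1 of the other 2 probe sets fell in MCF10A (-0.49) and also fell in MDA-MB-231 (-0.63). On the mean of the 3 probe sets the MCF10A difference was -0.0225 (limma adjusted p = 0.697) and the MDA-MB-231 difference -0.2025 (limma adjusted p = 0.000548), so both calls for THBD depended on the probe set. The difference of response, -0.1675 ± 0.0647 (limma adjusted p = 0.045), was lost when any of 11 arrays was left out (limma adjusted p from 0.0598 to 0.0964). It was also lost with each array centred on its median (limma adjusted p = 0.0847), with the actin covariate (0.0604) and with every probe set tested (0.0624). Among single arrays left out, it was kept without replicate C of any group or replicate D of MDA-MB-231 2DG.

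Of the Kunitz inhibitors, TFPI rose and TFPI2 fell in MCF10A, while TFPI2 rose in MDA-MB-231 and the direction of TFPI there depended on the probe set. TFPI read 10.18, 10.08, 10.22 and 10.14 in MCF10A on vehicle and 11.49, 11.42, 11.46 and 11.53 with 2DG. The MDA-MB-231 readings were 11.21, 11.41, 11.29 and 11.28 on vehicle and 10.31, 10.25, 10.29 and 10.31 with 2DG. The order of the lines was thus turned around by 2DG on this probe set. TFPI rose 2.5-fold in MCF10A (1.32 ± 0.0446; limma adjusted p = 1.84e-13) and on this probe set fell 2.01-fold in MDA-MB-231 (-1.01 ± 0.0446; limma adjusted p = 8.7e-12). The response differed by -2.33 ± 0.0631 (limma adjusted p = 9.15e-14).

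The rise of TFPI in MCF10A was called on all 5 of its probe sets, between 0.4175 and 1.32. The probe set with 0.4175 had overlapping groups and MCF10A means of 5.07 and 5.49, below the array medians, so its rise is uncertain. In MDA-MB-231, besides the brightest, 1 more of the 5 fell (-0.64 ± 0.102; limma adjusted p = 4.21e-05) and 3 rose, by 0.18 ± 0.06, 0.57 ± 0.0536 and 0.485 ± 0.107 (limma adjusted p = 0.0197, 8.98e-08 and 0.00101). The mean over all 5 gave -0.0825 (limma adjusted p = 0.171), so no single direction holds for TFPI in MDA-MB-231. The responses of the lines still differed, with a lower value in MDA-MB-231, on 4 of the 5 probe sets.

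TFPI2 read 7.73, 7.60, 7.79 and 7.54 in MCF10A on vehicle and 5.88, 6.13, 6.10 and 6.19 with 2DG. In MDA-MB-231 the vehicle arrays gave 10.73, 10.43, 10.79 and 10.78 and the 2DG arrays 11.75, 11.80, 11.79 and 11.81. No groups overlapped, and all MDA-MB-231 arrays lay above all MCF10A arrays. TFPI2 fell 3.01-fold in MCF10A (-1.59 ± 0.0819; limma adjusted p = 3.76e-11) and rose 2.15-fold in MDA-MB-231 (1.105 ± 0.0819; limma adjusted p = 5.26e-09). The difference of response was 2.695 ± 0.116 (limma adjusted p = 1.58e-11). The MCF10A mean with 2DG, 6.075, lay below the array medians, so the sizes of the fall and of this difference are uncertain. The other probe set gave -0.855 and 1.24.

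**Figure D2:**
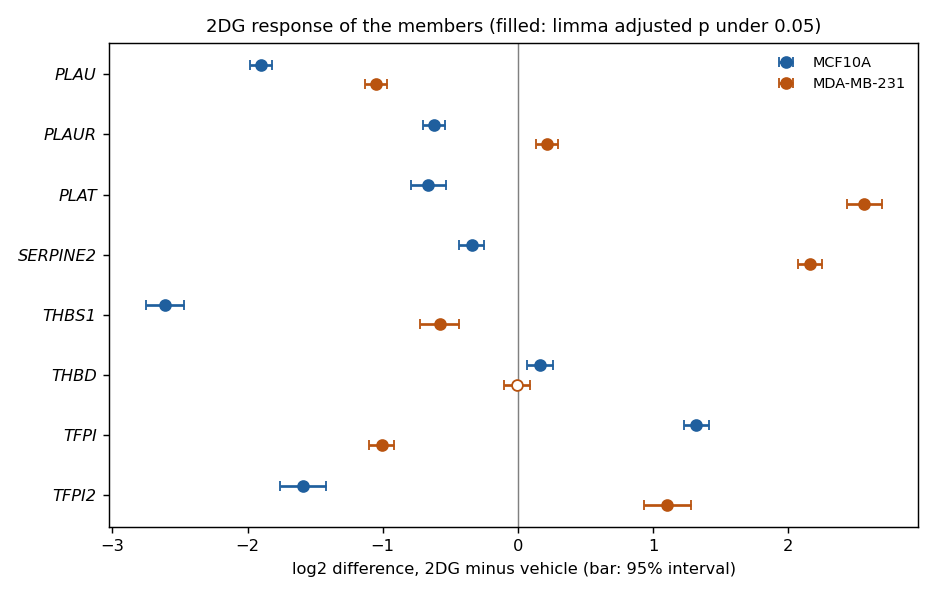
Log2 difference between 2DG and vehicle (x axis) of the brightest probe set of each gene (y axis) in MCF10A and MDA-MB-231, with 95% intervals from limma and filled points where the adjusted p was under 0.05. PLAU and THBS1 lie left of 0 in both lines, PLAT (2.56) and SERPINE2 (2.16) far right in MDA-MB-231, and TFPI and TFPI2 on opposite sides.

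Over the 17 further probe sets of these genes, 16 had the sign of the brightest in MCF10A and 9 in MDA-MB-231. Of the others, 1 was called with the opposite sign in MCF10A and 6 in MDA-MB-231, which belonged to TFPI (3), THBS1 (2) and PLAUR (1). The plot by probe set shows the opposite calls for THBS1 at the lowest means over 16 arrays, but in MDA-MB-231 itself 1 of these probe sets read 8.12 on vehicle and 8.37 with 2DG. For TFPI the opposite calls included the next brightest probe set after the main one. PLAU, SERPINE2 and TFPI2 had 1 further probe set each, of the same sign in both lines. The MCF10A count of 16 includes dim probe sets of THBS1, TFPI and SERPINE2 with means below the array medians. Their signs in that line are therefore uncertain.

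**Figure D3:**
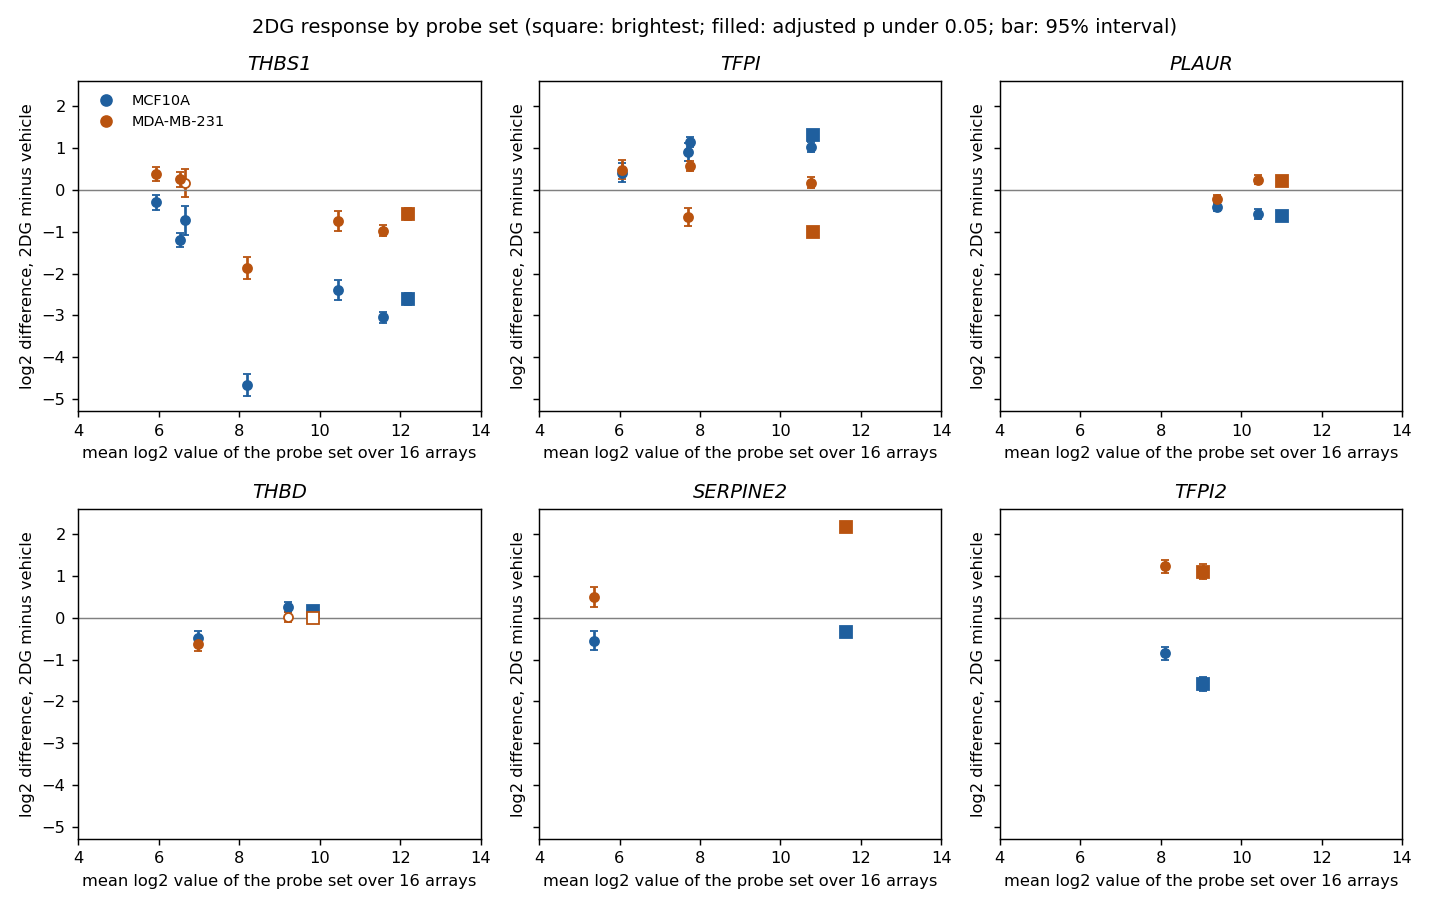
Log2 difference between 2DG and vehicle (y axis) against the mean log2 value of the probe set over 16 arrays (x axis) for every probe set of 6 genes in both lines; squares are the brightest, filled points have an adjusted p under 0.05 and bars are 95% intervals. The THBS1 points for MCF10A are all below 0, down to -4.665, while TFPI has points on both sides of 0 in MDA-MB-231.

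The test of the difference of response was called for all 8 genes, beside 45.8% of all genes. Of these, 6 were higher in MDA-MB-231, beside 22.3% of all genes, and 2 lower, beside 23.6%. The differences reached at least 1 in size for 5 of them, beside 8.87% of all genes. In order of size these were PLAT (3.22), TFPI2 (2.695), SERPINE2 (2.50), TFPI (-2.33) and THBS1 (2.03). The size for TFPI2 is uncertain, as given above. PLAU and PLAUR followed at 0.85 and 0.83, and THBD, at -0.1675, rested on single arrays as given above.

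The second question was how the lines differed without and with 2DG. On vehicle, MDA-MB-231 had more TFPI2, PLAT, TFPI, PLAU and PLAUR than MCF10A and less SERPINE2 and THBD, while THBS1 did not pass the test. With 2DG, THBS1 and SERPINE2 were also higher in MDA-MB-231, and TFPI was lower on its brightest probe set. Called were 7 of 8 genes on vehicle, where 56% of all genes were, and 8 of 8 with 2DG, where 59.5% were. Higher in MDA-MB-231 were 5 on vehicle and 6 with 2DG (29.2% and 30.7% of all genes), and lower 2 and 2 (26.8% and 28.8%). The lines did not overlap for 7 genes on vehicle and 8 with 2DG, beside 52.7% and 56.3% of all genes. Sizes of at least 1 were reached by 4 genes on vehicle (13% of all genes) and by all 8 with 2DG (17.9%).

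TFPI2 was 8.1-fold higher in MDA-MB-231 on vehicle (3.02 ± 0.0819; limma adjusted p = 9.95e-15) and 52.4-fold higher with 2DG (5.71 ± 0.0819; limma adjusted p = 2.87e-18). PLAT was 3.15-fold higher on vehicle (1.66 ± 0.0606; limma adjusted p = 4.25e-13) and 29.4-fold with 2DG (4.88 ± 0.0606; limma adjusted p = 6.5e-19). The mean of TFPI2 in MCF10A with 2DG, 6.075, lay below the median of every array, where no detection call is given, so the size of that fold is uncertain. The other probe set of TFPI2 gave 7.44-fold and 31.7-fold (2.895 and 4.99). Its MCF10A mean with 2DG was lower still, at 5.70, so the 31.7-fold has the same limit. For both genes the gap between the lines was thus wider with 2DG, through a lower MCF10A and a higher MDA-MB-231 level. The PLAU gap was 0.66 on vehicle and 1.505 with 2DG, and that of PLAUR 0.39 and 1.225. The probe set of PLAUR that fell there was lower in MDA-MB-231 in both conditions (-0.54 and -0.34), so the line difference of the receptor depended on the probe set.

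SERPINE2 was 2.51-fold lower in MDA-MB-231 on vehicle (-1.33 ± 0.0424; limma adjusted p = 7.61e-14) and 2.25-fold higher with 2DG (1.17 ± 0.0424; limma adjusted p = 2.41e-13). THBS1 differed by 0.12 on vehicle, with a 95% interval of -0.0239 to 0.264 (limma adjusted p = 0.152), and by 2.15 ± 0.0676 with 2DG (limma adjusted p = 3.77e-14). On vehicle its direction varied by probe set: 1 gave -2.225, and the mean of all 7 gave 0.43 (limma adjusted p = 2.73e-07). THBD was lower in MDA-MB-231 in both conditions (-0.90 and -1.065), on all 3 of its probe sets. TFPI was higher in MDA-MB-231 on vehicle (1.14 ± 0.0446) on all 5 probe sets. With 2DG it was lower on the brightest (-1.185 ± 0.0446; limma adjusted p = 4.03e-13), but the mean of all 5 gave 0.1205 (limma adjusted p = 0.0379).

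**Figure D4:**
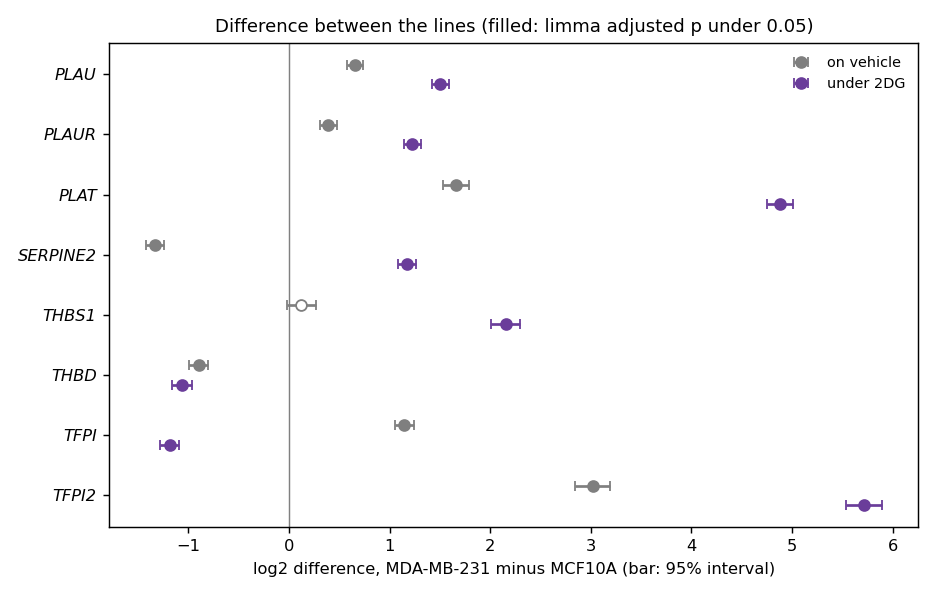
Log2 difference between MDA-MB-231 and MCF10A (x axis) of each gene's brightest probe set (y axis) on vehicle and under 2DG, with 95% intervals from limma; the open point, THBS1 on vehicle, had an adjusted p of 0.152. The 2DG points of PLAT (4.88) and TFPI2 (5.71) lie farthest right, and SERPINE2 and TFPI change sides.

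The means of the actin 3′/5′ control were higher with 2DG in both lines. Higher values of this difference (3′ minus 5′ probe set, log2) can mean less complete RNA. It was 0.393 ± 0.067 (SD, n = 4) in MCF10A on vehicle and 0.55 ± 0.0678 with 2DG. The MDA-MB-231 arrays gave 0.597 ± 0.331 on vehicle, where replicate B stood at 1.09, and 1.03 ± 0.0714 under treatment. With the actin difference as a covariate, the 8 and 7 calls for 2DG in the lines were again made. PLAT then changed by 2.415 and TFPI2 by 1.30 in MDA-MB-231. Without vehicle replicate B, and with no covariate, these values were 2.63 and 1.02. In MCF10A the actin difference did not overlap between vehicle (0.34 to 0.49) and 2DG (0.50 to 0.65). In MDA-MB-231 only vehicle replicate B reached the 2DG range (0.97 to 1.13). These checks therefore cannot separate RNA quality from 2DG. The line markers partly followed the labels: the 6 basal and epithelial markers with a value had means of 10.6 to 13.6 in MCF10A and 4.62 to 10.1 in MDA-MB-231 on vehicle. Of 8 mesenchymal markers, SPARC (10.9 against 5.55 on vehicle) and TGFBI (14.5 against 9.37) were higher in MCF10A, not in MDA-MB-231. The 5 endothelial markers had group means of 4.7 to 7.08 in MCF10A and 4.8 to 9.45 in MDA-MB-231, where with 2DG ESAM went from 8.51 to 9.45 and PECAM1 from 7.28 to 8.22, while CDH5 stayed between 4.58 and 5.04 on all arrays. Of 6 leukocyte and platelet markers, 5 had a value, between 3.75 and 8.72 in MCF10A and between 3.97 and 7.32 in MDA-MB-231. CD14 went from 8.1 to 8.72 with 2DG in MCF10A, and PTPRC stayed between 3.67 and 4.29 on all arrays. The part of these markers in the results was not tested.

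The neighbouring genes of the system were described through 4 lists. For comparison, 29% of all genes were called higher with 2DG and 25.2% lower in MCF10A. In MDA-MB-231 these shares were 25.5% and 25.4%. Of 24 other plasminogen activation and fibrinolysis genes with a value, 5 rose and 6 fell in MCF10A and 9 rose and 2 fell in MDA-MB-231, so 45.8% were called in each line. VLDLR, a receptor that clears activator and inhibitor complexes, rose by 3.07 ± 0.0725 in MCF10A and by 2.045 ± 0.0725 in MDA-MB-231 (limma adjusted p = 2.33e-15 and 6.34e-13). Its MCF10A vehicle mean was 4.775, below the array medians, so the size of that rise is uncertain; in MDA-MB-231 it went from 7.97 to 10.02. PLGRKT, a plasminogen receptor, fell by 2.25 ± 0.0411 in MCF10A and fell by 1.18 ± 0.0411 (limma adjusted p = 1.23e-16 and 5.08e-13). SERPINI1, neuroserpin, an inhibitor of PLAT, fell by 1.28 in MCF10A and rose by 1.115 in MDA-MB-231, with a difference of 2.398 ± 0.0996 (limma adjusted p = 1.03e-11). The serpin SERPINB8 rose by 0.59 and 2.06, while its other probe set gave -0.0775 and 0.0775. PRSS3, a trypsinogen with near-identical copies and so uncertain, rose by 1.11 in MDA-MB-231 and did not pass in MCF10A (-0.23, limma adjusted p = 0.143).

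Of 18 urokinase receptor partners and relatives, 6 rose and 4 fell in MCF10A (55.6% called) and 5 rose and 6 fell in MDA-MB-231 (61.1%). IGF2R, which binds the urokinase receptor and latent transforming growth factor beta, rose by 1.155 in MCF10A and by 0.115 in MDA-MB-231, with 1 of its 2 other probe sets of opposite sign in MCF10A (-0.32). LYPD3, a relative of the receptor, rose by 1.835 in MCF10A and did not pass in MDA-MB-231 (-0.0825, limma adjusted p = 0.689). The relatives LYPD6 and LYPD1 were lower in MDA-MB-231 with 2DG (-2.25 and -0.635), and LYPD6 also in MCF10A (-0.62). In MCF10A, LYPD6 went from 5.865 to 5.248, below the array medians, so its fall there is uncertain. The responses of IGF2R, LYPD3 and LYPD6 differed between the lines (-1.04, -1.917 and -1.63; limma adjusted p = 1.8e-10, 8.08e-07 and 8.5e-06).

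Of 23 genes of tissue factor, thrombin receptors and the protein C pathway, 5 rose and 6 fell in MCF10A (47.8% called) and 1 rose and 12 fell in MDA-MB-231 (56.5%). Tissue factor (F3), the enzyme cofactor that TFPI blocks, fell by 1.325 ± 0.0537 in MCF10A and fell by 1.535 ± 0.0537 in MDA-MB-231. GAS6, a vitamin K-dependent ligand of receptor kinases, changed by -0.87 and -1.125, both called. The thrombin receptor F2R rose by 2.33 ± 0.0774 in MCF10A and fell by 0.74 ± 0.0774 in MDA-MB-231. The difference was -3.065 ± 0.109 (limma adjusted p = 1.97e-12). Its other probe set gave only 0.445 and -0.1325, so the size of the F2R response depended on the probe set. F2RL2, a further thrombin receptor, rose by 1.92 and fell by 0.77, while its other probe set gave 0.0375 and 0.095; its MCF10A vehicle mean of 3.69 was also below the array medians. F8 fell by 1.06 in MDA-MB-231 and did not pass in MCF10A (-0.045, limma adjusted p = 0.73).

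Of 18 other thrombospondins and thrombospondin partners, 5 rose and 5 fell in MCF10A and 8 rose and 2 fell in MDA-MB-231, so 55.6% were called in each. THBS2, the closest relative of THBS1, rose by 0.34 in MCF10A and fell by 1.19 ± 0.0978 in MDA-MB-231. The difference was -1.53 ± 0.138 (limma adjusted p = 1.03e-07). Its MCF10A means, 5.16 on vehicle and 5.50 with 2DG, were below the array medians, so the rise there is uncertain. ADAMTS1, a secreted metalloprotease, fell by 2.44 ± 0.101 in MCF10A and rose by 0.72 ± 0.101 in MDA-MB-231. The MCF10A fall ended at 4.99, below the array medians, so its size is uncertain. The scavenger receptor SCARB1 fell in both (-1.125 and -0.77), with 1 and 2 of its 4 other probe sets of opposite sign. CALR, the chaperone calreticulin, which also acts as a thrombospondin receptor at the cell surface, rose by 0.4775 and 1.33. The called shares of the 4 lists lay between 45.8% and 61.1%, beside 54.2% and 50.9% of all genes. Their median differences lay between -0.0625 and 0.025 in MCF10A and between -0.1575 and 0.1025 in MDA-MB-231, beside 0.0225 and 0.0275.

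**Figure D5:**
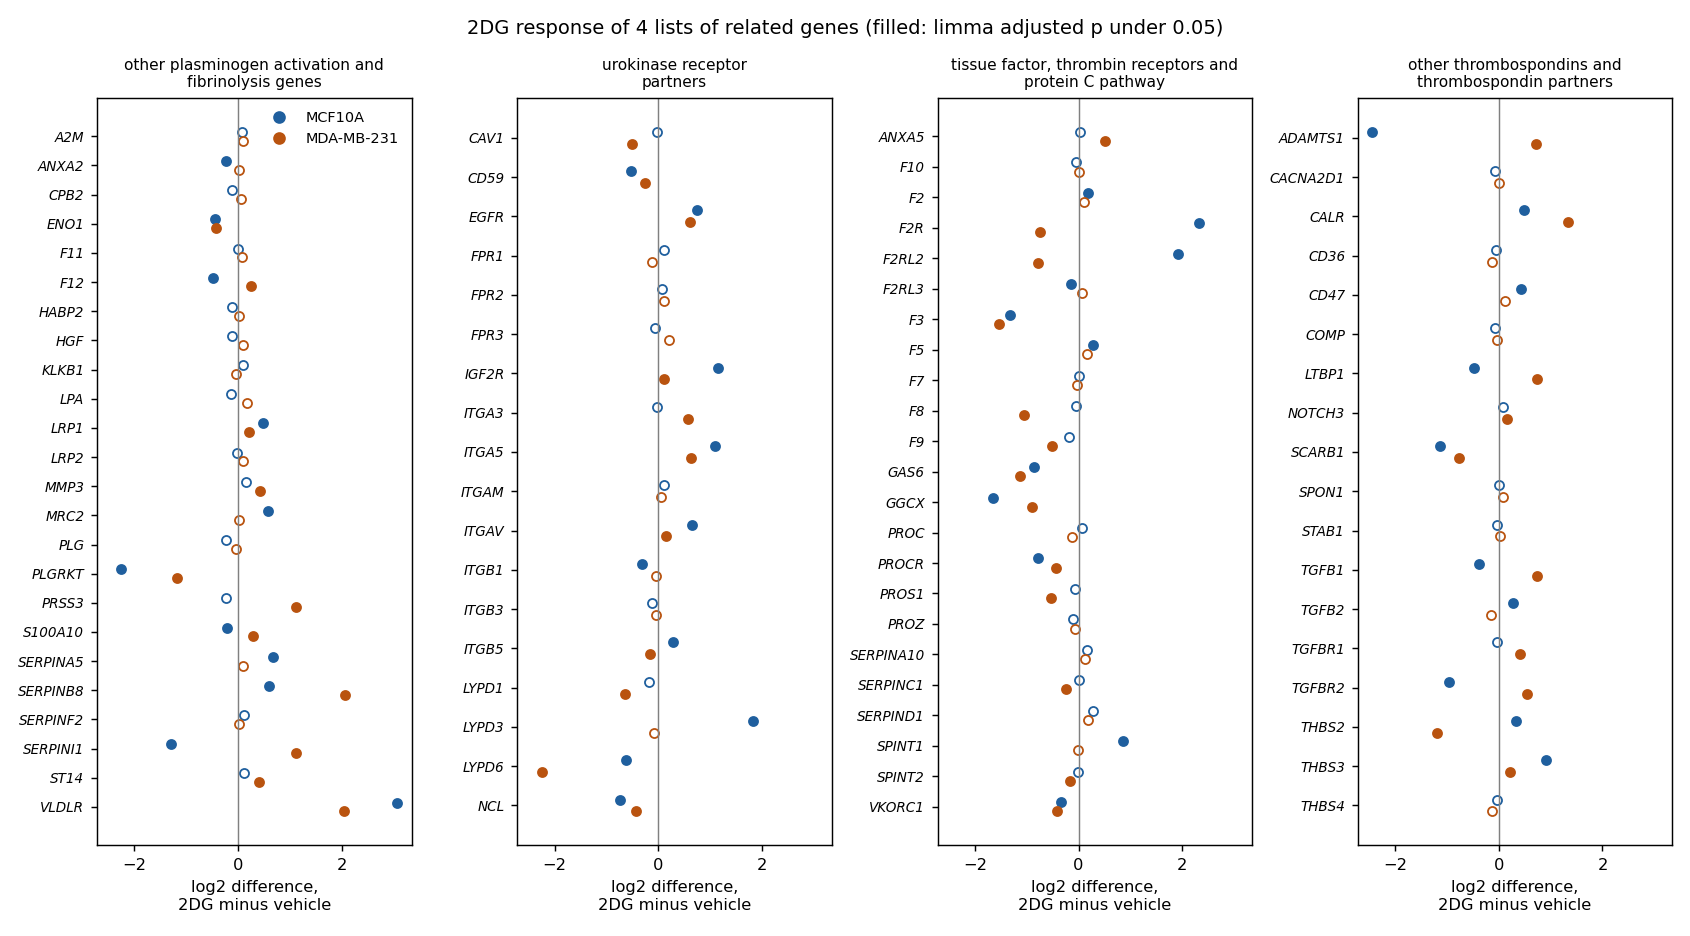
Log2 difference between 2DG and vehicle (x axis) in MCF10A and MDA-MB-231 for the genes with a value in 4 lists of related genes (y axis); filled points had a limma adjusted p under 0.05. VLDLR rises and PLGRKT and F3 fall in both lines, while F2R, ADAMTS1 and SERPINI1 lie on opposite sides of 0.

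The genes whose log2 values were most like each member over the 16 arrays were found by Pearson correlation among 4976 or 4977 other genes with an SD of at least 0.5. The 16 points fall into 4 groups and share line and treatment, so the values mostly describe how alike the group means lie. A high r does not require the same order of groups or the same direction in each line. ZNF503, named below for SERPINE2, went from 9.755 to 9.792 with 2DG in MCF10A, where SERPINE2 fell. PLAU was most like AURKB and TK1 (r = 0.999 for both), which encode a mitotic kinase and thymidine kinase, and THBS1 like PCLAF and GGH (0.996 for both). PLAUR was most like LPXN (0.997) and ETV5 (0.994), PLAT like PLCXD2 (0.997) and TOR4A (0.996), and TFPI2 like ETS1 (0.998) and MECOM (0.997), both transcription factors. THBD was most like FAR2 (0.997) and ST6GAL1 (0.995). Likeness was lower for SERPINE2, with ZNF503 (0.966) and SDF2L1 (0.955), and for TFPI, with P3H2 (0.979) and the histone gene H2BC12 (0.946).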

How the data were processed

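RNA for the 16 arrays was labelled from its 3′ end, per the labels' protocols. The deposited values are on the log2 scale, from the authors' RMA (background correction, quantile normalization and probe summary), per the submitters' processing notes; the version, and whether all arrays were normalized together, are not given in the sources used here. Arrays carry no read depth, and their number limits the precision.

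Of 54675 probe sets, 41091 with 1 gene in GEO's platform annotation were used (1801 had several genes), and 41037 of these matched the RefSeq table of GRCh38.p14 by gene number with no change of symbol. The brightest probe set over 16 arrays stood for each of 19775 genes. The model (limma 3.58.1 under R 4.3.3) had 4 group means, 12 residual degrees of freedom and two-sided tests adjusted over all genes, and was tested on simulated data. No filter on dim genes was applied. SE is that of the fit and SD that over 4 arrays.

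The members and lists were chosen with earlier results of these data known. Named list genes were the 2 called ones with the largest change per line and any whose response differed by at least 1; like genes were the 2 with the highest correlation. Of 88 list genes, 83 had a value. Alternatives were another normalization, the mean of all probe sets, no shared probe sets (suffixes _s, _x and _a), no dim genes (highest group mean under 6), another variance prior, only the groups compared, the replicate block, the actin covariate, every probe set tested, and leaving out each array.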

Additional observations from a re-analysis of the deposited data

Results flagged for a closer look

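The response to 2DG differed between the lines by the limma test of the difference (MDA-MB-231 minus MCF10A, log2) for all 8 genes with a value: PLAT by 3.22, TFPI2 by 2.695, SERPINE2 by 2.50, TFPI by -2.33, THBS1 by 2.03, PLAU by 0.85, PLAUR by 0.83 and THBD by -0.1675. The largest adjusted p was that of THBD, 0.045, and this call was lost when any of 11 arrays was left out and under 4 other alternatives (adjusted p from 0.0604 to 0.108). Among all genes 45.8% passed the same test.

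Of 32 groups of 4 arrays (8 genes in 4 groups), 2 held an array far from the other 3, and chance marks about 1 group in 20. PLAT in MDA-MB-231 with 2DG read 13.31 in replicate D, beside 13.17 to 13.18. TFPI2 in MDA-MB-231 on vehicle read 10.43 in replicate B, beside 10.73 to 10.79, and this array also had the highest actin 3′/5′ difference of its group, 1.09.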

How the results depend on the processing

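The counts of called members per comparison stayed within 1.5 times of those reported under every alternative run. Leaving out 1 array at a time gave 8 in MCF10A, 7 in MDA-MB-231, 7 to 8 for the difference of response, 7 for the lines on vehicle and 8 under 2DG. With the replicate block these were 8, 7, 7, 7 and 8; the letters pair no samples by the labels, and deviations of same-lettered arrays correlated by -0.0992 to 0.0877. The block ended 1 call, the difference of response of THBD (adjusted p = 0.108).

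Direction changed mostly with the choice of probe set. Without shared probe sets, which left PLAU and PLAT without a value, PLAUR was -0.21 in MDA-MB-231 and -0.54 and -0.34 between the lines on vehicle and under 2DG, THBS1 between the lines on vehicle was -2.225, and THBD in MDA-MB-231 was 0.0275. On the mean of all probe sets, THBD in MCF10A was -0.0225 and TFPI between the lines under 2DG 0.1205. The difference of THBD in MDA-MB-231, not called on its brightest probe set, was -0.2025 and called on the mean of all probe sets, 0.043 after repeated quantile normalization and ranged from -0.024 to 0.016 when 1 array was left out. The cause was not tested. The fit of only the groups compared has no form of its own for the difference of response, which uses all 4. No detection call comes with these values, which limits what low values show, such as TFPI2 in MCF10A and the dim probe sets of THBS1, TFPI and SERPINE2.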

Other observations

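Further genes of the thrombospondin list were named because their responses to 2DG differed by at least 1 between the lines; the same rule named THBS2, whose difference had the other sign (-1.53). TGFBR2, a receptor of transforming growth factor beta, fell by 0.96 ± 0.0391 (SE, n = 4 per group) in MCF10A and rose by 0.54 ± 0.0391 in MDA-MB-231, with a difference of response of 1.502 ± 0.0553 (limma adjusted p = 2.67e-12). LTBP1, which stores that ligand in the matrix, fell by 0.475 ± 0.0494 and rose by 0.735 ± 0.0494, with a difference of 1.21 ± 0.0699 (limma adjusted p = 4.97e-10). TGFB1 fell by 0.38 ± 0.0591 and rose by 0.73 ± 0.0591, but its other probe set had the opposite sign in MCF10A (0.115). The difference of response of TGFB1 was 1.11 ± 0.0835 and that of ADAMTS1 3.16 ± 0.143 (limma adjusted p = 1.14e-08 and 2.7e-11).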
